A study of Mus musculus with 12 samples.

Results

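The genes described here carry out V(D)J recombination and the repair of the breaks it makes: *Rag1*, *Rag2*, *Dntt*, *Xrcc5*, *Xrcc6*, *Prkdc*, *Dclre1c*, *Lig4*, *Xrcc4*, and *Nhej1*. They were chosen by function and found by symbol, and all 10 were among the 47643 genes of the deposited expression table. All 10 also passed the filter on low values, a mean of at least 1 over the 12 libraries in TPM (reads per gene length, scaled to the same sum in every library), as did 14479 genes in all. The libraries are poly(A)+ RNA-seq of common lymphoid progenitors (CLPs), sorted from the bone marrow of male mice as Lin- Sca1lo cKitlo IL7Rα+ cells, with 1 library per mouse. The 3 groups were 4 wild-type mice (WT), 4 mice lacking the long noncoding RNA locus *Firre* (∆*Firre*, labelled KO), and 4 dox-fed mice that carry a *Firre* transgene on the same deletion (*Firre* rescue, labelled Rescue).

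The mice were matched for age and sex, and the sample labels give no age. The *Firre* allele was targeted in JM8 embryonic stem cells, deleted with a CMV-Cre deleter, and backcrossed to C57BL/6J for 3 generations. The deletion removes the gene and its promoter in every tissue, so it is not particular to CLPs. The *Firre* rescue mice carry that deletion, a *Firre* cDNA behind a tet-responsive minimal promoter, and a constitutive rtTA, and they ate doxycycline chow. The rtTA mice came from a line whose name gives B6N and FVB origins, so strain background may differ in *Firre* rescue. Regular chow is the general diet in the study's methods, and doxycycline feeding, the transgene, and the rtTA are stated for *Firre* rescue alone in this comparison, so *Firre* RNA, rtTA, strain background, and doxycycline cannot be told apart in *Firre* rescue. The labels also give the *Firre* rescue libraries a number range of their own, while the other 2 ranges each hold 2 WT and 2 ∆*Firre* libraries. The labels do not say what these numbers stand for, and for *Firre* rescue whatever they mark cannot be told apart from genotype.

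V(D)J recombination assembles the variable exons of immunoglobulin and T cell receptor genes from separate segments. RAG1 and RAG2 form the recombinase, which binds recombination signal sequences and cuts beside them, leaving hairpin-sealed coding ends and blunt signal ends. The Ku heterodimer (XRCC6, also called Ku70, and XRCC5, also called Ku80) holds the broken ends and recruits the kinase DNA-PKcs (*Prkdc*), which activates the nuclease Artemis (*Dclre1c*) to open the hairpins. Terminal deoxynucleotidyl transferase (*Dntt*) adds nucleotides without a template, and DNA ligase IV (*Lig4*) with XRCC4 and XLF (*Nhej1*) seals the joint. *Rag1*, *Rag2*, and *Dntt* are largely restricted to developing lymphocytes and switch on in early lymphoid progenitors, whereas the end-joining genes serve break repair in all cells.

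As a check of the labels, *Firre* was listed at 0 TPM in all 4 ∆*Firre* libraries, at 25.2 to 31.6 TPM in WT, and at 59.9 to 174 TPM in *Firre* rescue. The reads recovered from the TPM values came to 10980635 to 18154173 per WT library, 14357086 to 17580642 per ∆*Firre* library, and 25754569 to 32537890 per *Firre* rescue library. Because the reads carry no molecular identifiers, read numbers give only a lower bound of counting error. The CLP markers *Il7r*, *Flt3*, *Kit*, *Ly6a*, *Ly6d*, *Cd27*, *Cd34*, and *Notch1* were detected in all groups, and none of the 8 was at 0 in any group. At an adjusted p of 0.1 or less in limma, 3 of 14479 genes (0.0207%) were called in ∆*Firre* against WT, 27.9% in *Firre* rescue against ∆*Firre*, and 24.3% in *Firre* rescue against WT. Any pair of these comparisons shares a group of libraries. The authors' own test (DESeq2 with fdrtools, FDR of 0.1) called more genes in ∆*Firre* against WT and in *Firre* rescue against ∆*Firre*. The number of genes called therefore depends on the test.

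The 10 genes lay far apart in abundance, between ranks 6 and 11397 of the 14479 genes tested in single libraries. In WT, *Dntt* was by far the highest at 5609 ± 1070 TPM (SD, n = 4), and it ranked between 7th and 17th of the 14479 genes in every WT library. *Xrcc6* followed at 259.5 ± 60.0 TPM (SD, n = 4) and *Rag1* at 174.8 ± 33.4 TPM (SD, n = 4), with ranges that overlapped. *Rag2* lay below both at 118.0 ± 6.9 TPM (SD, n = 4), *Xrcc5* at 53.6 ± 14.5 TPM (SD, n = 4), and *Prkdc* at 28.4 ± 6.49 TPM (SD, n = 4), each range apart from the next. The nuclease and ligation genes formed the low end: *Dclre1c* at 13.7, *Xrcc4* at 12.6, *Nhej1* at 11.98, and *Lig4* at 9.74 TPM, with overlapping ranges between neighbors. The order was the same in ∆*Firre* down to *Prkdc*, and in *Firre* rescue *Rag1* (312.5 ± 24.6 TPM, SD, n = 4) stood above *Xrcc6* (295.0 ± 22.0 TPM, SD, n = 4), again with overlapping ranges.

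**Figure D1:**
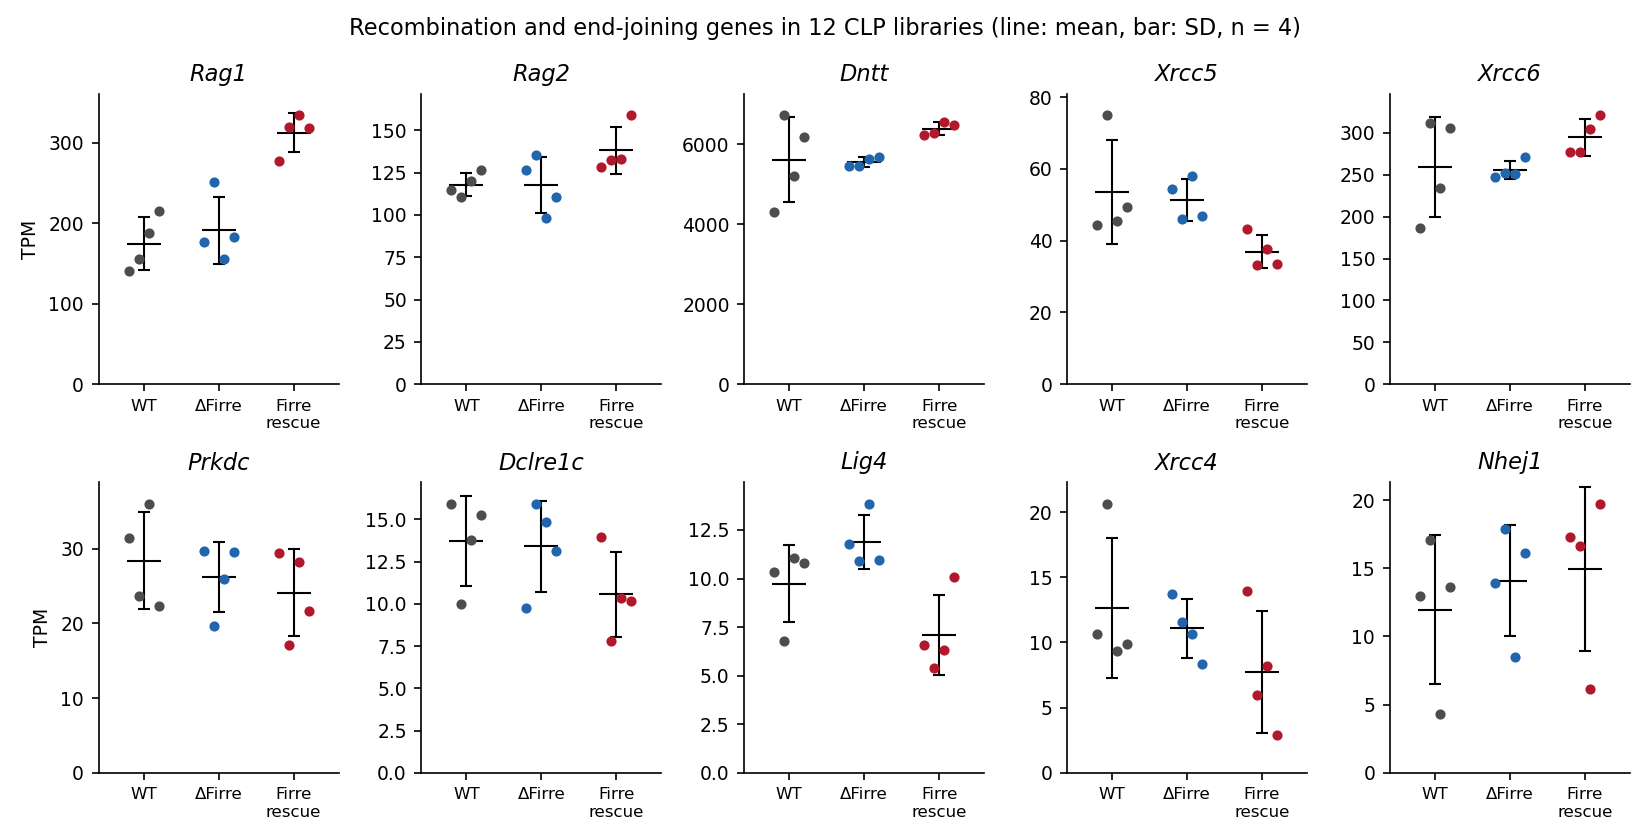
Expression in TPM (vertical axes, each from 0) of the 10 genes in every WT, ∆*Firre*, and *Firre* rescue library, with 1 point per library, a horizontal line at the group mean, and a bar of 1 SD (n = 4). *Rag1* is higher in all 4 *Firre* rescue libraries (277 to 334 TPM) than in any other library, *Xrcc5* is lower in all 4, and none of the 10 separates ∆*Firre* from WT.

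How closely the libraries of a group agreed differed by gene. *Dntt* had a coefficient of variation of 2.22% in ∆*Firre* and 2.51% in *Firre* rescue, against 19% in WT. *Nhej1* had one of 45.4% in WT, where 28 to 70 reads stood behind each value, and counting alone gives at least 14.1%. *Xrcc4* varied by 60.4% in *Firre* rescue with 114 to 537 reads, where counting alone gives at least 6.51%. The values of *Rag1*, *Rag2*, *Dntt*, and *Xrcc6* rest on at least 1330 reads in every library, and those of *Lig4*, *Xrcc4*, and *Nhej1* on at most 537. For each of these 3 ligation genes, the variation between libraries exceeded the lower bound of counting error in every group.

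*Rag1*, the catalytic subunit of the recombinase, was the member that differed most firmly. It was at 141, 155, 188, and 215 TPM in the WT libraries (mice 6, 8, 10, and 11). It was at 177, 251, 155, and 183 TPM in the ∆*Firre* libraries (mice 8, 9, 11, and 12), and at 277, 320, 334, and 318 TPM in the *Firre* rescue libraries (mice 1, 2, 3, and 4). All 4 *Firre* rescue libraries lay above all 8 others, while the WT and ∆*Firre* libraries were interleaved. On the log2(TPM + 1) scale *Rag1* rose by 0.73 (SE 0.15) in *Firre* rescue against ∆*Firre*, a 1.65-fold difference (limma, adjusted p = 0.00773), and by 0.85 (SE 0.15) against WT, a 1.80-fold difference (limma, adjusted p = 0.00391). Against ∆*Firre*, 8.58% of all genes were called higher, and against WT 4.82%. *Rag1* was called in all 25 processing alternatives of each of these comparisons, with log2 fold changes of 0.63 to 1.10 against ∆*Firre* and 0.75 to 1.20 against WT. In ∆*Firre* against WT the difference of *Rag1* was 0.13 with a 95% interval from −0.21 to 0.46 (limma, adjusted p = 1).

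*Rag2*, the partner that binds modified chromatin and is required for cutting, was not called in any comparison under the reported settings. Its levels were 115, 110, 120, and 126 TPM in WT, 126, 136, 98.1, and 111 TPM in the ∆*Firre* libraries, and 129, 133, 133, and 159 TPM in those of *Firre* rescue, in the same order of mice. The *Firre* rescue libraries were all above WT but overlapped ∆*Firre*, and the library of *Firre* rescue mouse 4 stood above the other 3. The log2 difference was 0.24 (SE 0.11) against ∆*Firre* and 0.22 (SE 0.11) against WT, neither past the threshold (limma, adjusted p = 0.146 and 0.179). In each of these comparisons *Rag2* passed it in 5 of 25 alternatives, among them a rescaling of the libraries by their median ratio (0.36 and 0.41) and the correction for exon GC content (0.69 and 0.64). Against ∆*Firre* it also passed without ∆*Firre* mouse 9 (0.31, adjusted p = 0.0877 in limma).

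*Rag1* and *Rag2* are neighbors that face each other on chromosome 2 (GRCm38). *Rag1* spans 101638252 to 101649532 on the minus strand and *Rag2* spans 101624712 to 101632528 on the plus strand, with 5723 bases between their 3′ ends. The TPM of *Rag1* over that of *Rag2* was 1.22, 1.40, 1.57, and 1.70 in WT and 1.40, 1.85, 1.58, and 1.65 in ∆*Firre*. In *Firre* rescue it was 2.16, 2.42, 2.52, and 2.0, so every *Firre* rescue library had more *Rag1* per *Rag2* than any other library. Such a ratio is free of the overall scaling of its library, but not of a trend with exon GC content. The *Rag2* span shares 4320 bases with the opposite-strand gene *Iftap*, which was at 3.37 to 8.75 TPM over the 12 libraries (as B230118H07Rik). In an older annotation B230118H07Rik shares 208 exon bases with *Rag2*. With *Rag1*, which lies on its own strand, it shares 80 of the 6608 exon bases of *Rag1*. The strand setting of the counting is not given in the sources used here.

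The windows around the starts of the 3 lymphoid-restricted genes are shown because all 3 averaged higher in *Firre* rescue than in the other groups, although only *Rag1* was called. They come from RefSeq (GRCm38.p6), which gave windows for 9 of the 10 genes, run from 250 bases before to 50 bases after the start, and are written 5′ to 3′ on the strand of the gene: chr2:101649483-101649782 (minus strand) for *Rag1*, chr2:101624462-101624761 (plus strand) for *Rag2*, and chr19:41029025-41029324 (plus strand) for *Dntt*. Capitals mark exact matches to any of 5 motifs searched on both strands: the E-box letters CAGCTG, the E-box letters CACCTG (which read CAGGTG on the opposite strand), the forkhead letters TGTTTAC (which read GTAAACA there), the ETS-type letters AGGAAGT (which read ACTTCCT there), and the letters TATAAA (which read TTTATA there).
Rag1 start window: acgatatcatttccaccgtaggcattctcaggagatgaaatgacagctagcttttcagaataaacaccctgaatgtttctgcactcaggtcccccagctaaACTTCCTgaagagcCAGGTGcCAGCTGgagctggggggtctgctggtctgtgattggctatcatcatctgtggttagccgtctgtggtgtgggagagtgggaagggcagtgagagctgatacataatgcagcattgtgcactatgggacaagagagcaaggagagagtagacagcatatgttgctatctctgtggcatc
Rag2 start window: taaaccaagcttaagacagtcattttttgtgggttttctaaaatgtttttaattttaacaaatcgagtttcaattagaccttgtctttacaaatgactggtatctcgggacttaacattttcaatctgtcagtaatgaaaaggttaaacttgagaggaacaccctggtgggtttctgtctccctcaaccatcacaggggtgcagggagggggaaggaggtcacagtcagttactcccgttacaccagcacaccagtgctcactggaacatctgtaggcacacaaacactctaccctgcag
Dntt start window: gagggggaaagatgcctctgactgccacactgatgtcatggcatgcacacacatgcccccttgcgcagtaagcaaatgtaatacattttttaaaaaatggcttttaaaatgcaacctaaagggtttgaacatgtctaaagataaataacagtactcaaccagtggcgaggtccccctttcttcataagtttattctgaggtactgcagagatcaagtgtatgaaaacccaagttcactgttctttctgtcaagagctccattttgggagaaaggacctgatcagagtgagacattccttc

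The *Rag1* window held 3 matches close together: the ETS-type letters beginning 149 bases before the start, CAGGTG at 135, and CAGCTG at 128, with no overlap between them. The *Rag2* and *Dntt* windows held none of the 5 motifs. Over the 10 windows of the 9 genes, 6 held no match, and the remaining matches were CAGCTG in *Dclre1c* and in both windows of *Lig4*. Of all 32851 RefSeq windows of this length, 16.3% hold CAGCTG, 20.2% CACCTG, 3.65% the forkhead letters, 9.35% the ETS-type letters, and 13.6% TATAAA. A match describes the letters of the window and does not show that a factor binds there.

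*Dntt* encodes the polymerase that gives antigen receptor joints their untemplated nucleotides, and it was among the most abundant transcripts of these cells. It lies on chromosome 19 from 41029275 to 41059525 (plus strand). Its levels were 4315, 6725, 5213, and 6185 TPM in WT, 5453, 5443, 5636, and 5681 TPM in the ∆*Firre* libraries, and 6224, 6272, 6562, and 6469 TPM in those of *Firre* rescue. All *Firre* rescue libraries exceeded all ∆*Firre* libraries, and the WT libraries spread over the range of both. The log2 difference was 0.20 (SE 0.12) in *Firre* rescue against ∆*Firre* and 0.21 (SE 0.12) against WT (limma, adjusted p = 0.258 for both), and 0.01 in ∆*Firre* against WT with a 95% interval from −0.25 to 0.26. Limma-voom on recovered reads, which was among the alternatives, called it in both *Firre* rescue comparisons at 0.27 and 0.33, as did the GC correction at 0.47 and 0.47. It was also called against ∆*Firre* with only those groups in the fit (adjusted p = 0.0999) and against WT after rescaling by the median ratio (0.40, adjusted p = 0.0779), and leaving out WT mouse 8 called it against WT at 0.30 (adjusted p = 0.0994). The TPM of *Dntt* over that of *Rag1* was 27.7 to 43.3 in WT, 21.7 to 36.3 in ∆*Firre*, and 19.6 to 22.5 in *Firre* rescue, where the highest value overlapped the lowest of ∆*Firre*.

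**Figure D2:**
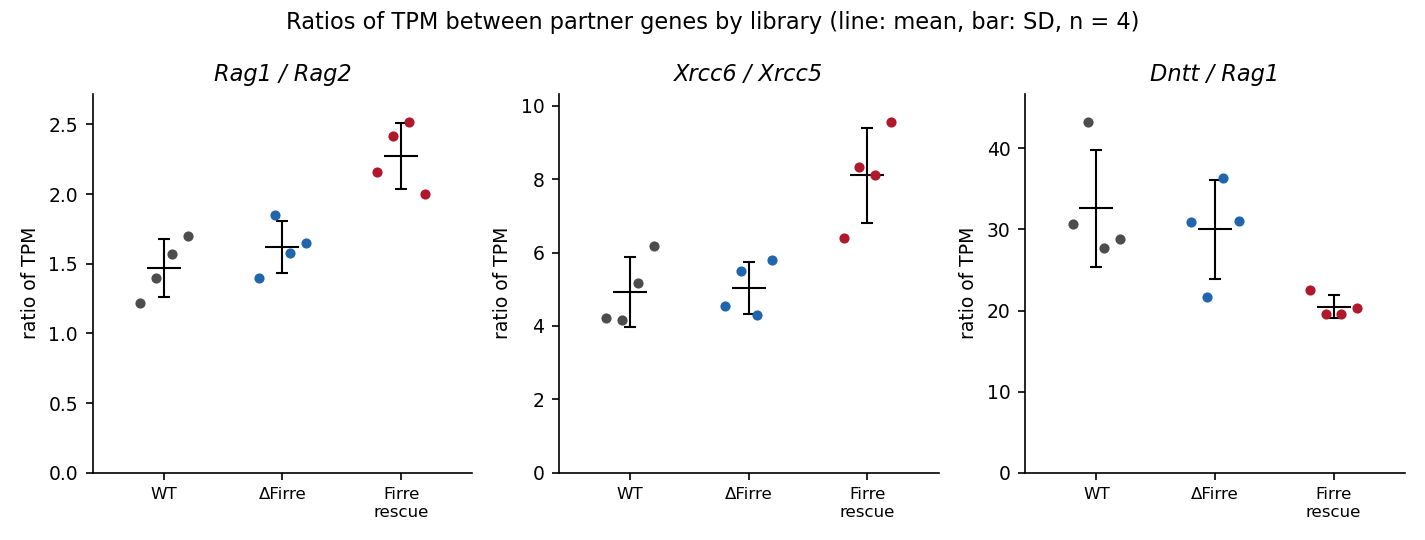
Ratio of TPM (vertical axes, from 0) between *Rag1* and *Rag2*, *Xrcc6* and *Xrcc5*, and *Dntt* and *Rag1* in each library, with the group mean as a line and 1 SD as a bar (n = 4). The first ratios lie higher in all *Firre* rescue libraries (2.0 to 2.52 and 6.41 to 9.57) than in any WT or ∆*Firre* library.

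The subunits of Ku act as an obligate pair, and 1 of them was called. *Xrcc5* lies on chromosome 1 from 72307417 to 72394953 (plus strand) and *Xrcc6* on chromosome 15 from 81987833 to 82040085 (plus strand). *Xrcc5* (Ku80) was at 44.3, 75.0, 45.5, and 49.4 TPM in WT, 54.3, 46.1, 58.1, and 46.8 TPM in the ∆*Firre* libraries, and 43.2, 33.3, 37.6, and 33.6 TPM in those of *Firre* rescue. Every *Firre* rescue library lay below every other library, although the highest of them was close to the lowest of WT. *Xrcc5* fell by 0.47 (SE 0.16) on the log2 scale against ∆*Firre* (limma, adjusted p = 0.0652) and by 0.50 (SE 0.16) against WT (limma, adjusted p = 0.0548). Lower calls made up 19.3% of all genes against ∆*Firre* and 19.4% against WT. That balance depended on the scaling. Of all calls, 30.7% were higher against ∆*Firre* and 19.9% against WT as reported, and 70.3% and 66.9% once exon GC content was corrected. Median-ratio rescaling gave 50.2% and 50.6%, and limma-voom 37.5% and 31.9%. Quantile normalization gave 2001 higher of 3733 calls against ∆*Firre* and 1208 of 2418 against WT. The call of *Xrcc5* was lost in 9 and 10 of 25 alternatives, with −0.35 and −0.31 once libraries were rescaled by their median ratio and −0.12 and −0.18 once GC content was corrected. It was also lost when 1 library was left out, at −0.44 and −0.40 against ∆*Firre* without ∆*Firre* mouse 8 or 11, at −0.33 against WT without WT mouse 8, and in both comparisons without *Firre* rescue mouse 2 or 4 (−0.46 to −0.42).

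*Xrcc6* (Ku70) was at 186, 311, 235, and 306 TPM in WT, 247, 253, 251, and 271 TPM in the ∆*Firre* libraries, and 277, 277, 305, and 321 TPM in those of *Firre* rescue. The *Firre* rescue libraries were all above ∆*Firre* and overlapped WT. The log2 difference was 0.21 (SE 0.14) in both *Firre* rescue comparisons (limma, adjusted p = 0.325 against ∆*Firre* and 0.323 against WT). Against WT it was called after rescaling by the median ratio (0.40, adjusted p = 0.0759), with limma-voom (0.34, adjusted p = 0.0715), and after the GC correction (0.40, adjusted p = 0.0918). Against ∆*Firre* it was called with only those groups in the fit (adjusted p = 0.085). The TPM of *Xrcc6* over that of *Xrcc5* was 4.15 to 6.18 in WT, 4.31 to 5.80 in ∆*Firre*, and 6.41 to 9.57 in *Firre* rescue. The *Firre* rescue ratios did not overlap the others, and they were not corrected for exon GC content. By that content *Xrcc6* was at the 64th percentile of genes tested and *Xrcc5* at the 28.7th. *Xrcc6* shares its span with the opposite-strand gene *Desi1*, listed as Pppde2 at 79.0 to 110 TPM.

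*Xrcc6* and *Dntt* followed each other from library to library. Over the 12 libraries their log2(TPM + 1) values had a Pearson r of 0.97, and of 0.96 after the group means were removed. Both were lowest in WT mouse 6 (4315 and 186 TPM) and highest within WT in mouse 8 (6725 and 311 TPM). These points share library depth and scaling, and the r is a description. The summed TPM of the basophil or mast cell markers *Mcpt8*, *Prss34*, *Cpa3*, *Fcer1a*, *Ms4a2*, and *Gata2* was 9045 in WT mouse 6 and 1052 in WT mouse 8, the highest and the lowest of WT, and their part in these values was not tested. *Xrcc4* and *Xrcc5* also varied together (r = 0.82, and 0.74 after the group means were removed), with both highest in WT mouse 8.

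Hairpin opening depends on *Prkdc* and *Dclre1c*, and neither was called in any comparison or alternative. *Prkdc* was at 22.3 to 36.0 TPM in WT, 19.7 to 29.7 TPM in the ∆*Firre* libraries, and 17.1 to 29.4 TPM in those of *Firre* rescue. Its log2 difference was −0.13 against ∆*Firre* with a 95% interval from −0.58 to 0.32, and −0.23 against WT with an interval from −0.68 to 0.22. *Dclre1c* was at 9.98 to 15.9 TPM in WT, 9.75 to 15.9 TPM in the ∆*Firre* libraries, and 7.80 to 13.9 TPM in those of *Firre* rescue. Its differences were −0.32 (95% interval −0.79 to 0.14) and −0.36 (−0.82 to 0.11), which turned to 0.13 and 0.06 after the GC correction, as those of *Prkdc* turned to 0.26 and 0.13. These intervals leave room for changes of about the size seen for *Xrcc5*. The span of *Dclre1c* shares bases with the opposite-strand gene *Suv39h2*, which was at a like level, 7.18 to 17.02 TPM.

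Of the ligation genes, *Lig4*, the ligase itself, was called in 1 comparison. The gene lies on chromosome 8 from 9970020 to 9977680 (minus strand). It was at 10.4, 6.78, 11.1, and 10.8 TPM in WT, 11.8, 10.9, 13.9, and 10.95 TPM in the ∆*Firre* libraries, and 6.56, 5.397, 6.34, and 10.1 TPM in those of *Firre* rescue. All *Firre* rescue libraries lay below all ∆*Firre* libraries and overlapped WT, where mouse 8 was the low value. *Lig4* fell by 0.70 (SE 0.22) against ∆*Firre*, 1.62-fold (limma, adjusted p = 0.0416), and its difference from WT was −0.42 (SE 0.22, adjusted p = 0.208). The fall against ∆*Firre* was called in 22 of 25 alternatives and was lost under quantile normalization (−0.46), after the GC correction (−0.29), and without ∆*Firre* mouse 11 (−0.62, adjusted p = 0.109). Against WT it was called without WT mouse 8 (−0.57) or without *Firre* rescue mouse 4 (−0.58).

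*Xrcc4*, the scaffold that binds the ligase, was at 10.7, 20.7, 9.32, and 9.91 TPM in WT, 13.7, 11.6, 10.7, and 8.31 TPM in the ∆*Firre* libraries, and 14.0, 5.96, 8.17, and 2.87 TPM in those of *Firre* rescue. The groups overlapped, and the *Firre* rescue libraries held both the lowest of the 12 values and a value above all of ∆*Firre*. The differences were −0.61 (SE 0.37, adjusted p = 0.267 in limma) against ∆*Firre* and −0.74 (SE 0.37, adjusted p = 0.191) against WT. Their size depended on single libraries. Leaving out 1 library gave −0.92 to −0.275 against ∆*Firre* and −1.05 to −0.40 against WT. Each was called in 1 of 25 alternatives, the one without *Firre* rescue mouse 1 (−0.92 and −1.05). In an older annotation *Xrcc4* shares 112 of its 4213 exon bases with the opposite-strand gene *Tmem167*, which was at 21.4 to 32.9 TPM. *Nhej1*, whose product XLF bridges the ends with XRCC4, was at 4.28 to 17.04 TPM in WT, 8.46 to 17.9 TPM in the ∆*Firre* libraries, and 6.17 to 19.8 TPM in those of *Firre* rescue. With intervals of −0.88 to 0.91 against ∆*Firre* and −0.57 to 1.22 against WT, no difference of *Nhej1* was detectable over the spread between libraries. That spread was 40.2% in *Firre* rescue, where counting alone gives at least 8.51%.

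**Figure D3:**
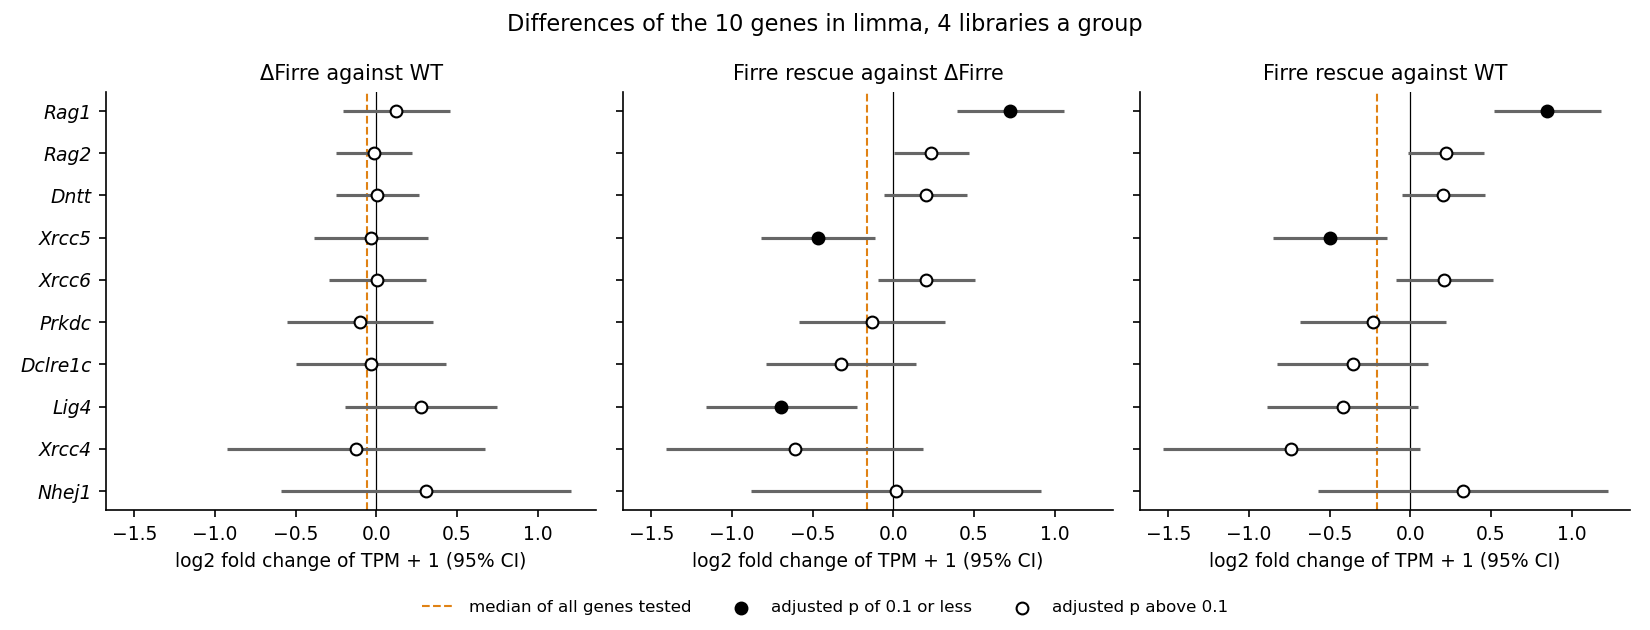
Log2 fold change on the log2(TPM + 1) scale (horizontal axes) with its 95% interval for the 10 genes in the 3 comparisons, filled points marking an adjusted p of 0.1 or less in limma and the dashed line the median of all genes tested. *Rag1* is called higher in both *Firre* rescue comparisons, *Xrcc5* lower in both, *Lig4* lower against ∆*Firre*, and no gene in ∆*Firre* against WT.

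The loss of *Firre* alone was compared with WT to ask whether any of these genes depends on the locus. None of the 10 was called with limma, 0 had an unadjusted p under 0.05 (5.30% of all genes did), and 0.0207% of all genes were called. Limma-voom on recovered reads called 0 of the 10 and 0 of all genes. The differences lay between −0.13 for *Xrcc4* and 0.31 for *Nhej1*, and no gene had groups that did not overlap, as 5.33% of all genes did. None was called in any of 28 alternatives. The intervals were narrowest for *Rag2* (−0.25 to 0.22) and *Dntt* (−0.25 to 0.26) and widest for *Nhej1* (−0.59 to 1.21). Within the library number ranges, each with 2 mice of either group, the difference of *Rag1* was −0.14 in range 2 and 0.39 in range 3, that of *Dntt* −0.22 and 0.23, and that of *Xrcc6* −0.31 and 0.32. The widest turns were those of *Nhej1* (−0.45 and 1.07) and *Prkdc* (0.26 and −0.46), and with *Rag2* and *Xrcc5*, 7 of the 10 changed sign between ranges.

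Under the reported settings the 10 genes were called in *Firre* rescue about as often as genes at large. Against ∆*Firre*, 1 was higher and 2 were lower of 10, beside 27.9% of all genes called. Against WT, 1 was higher and 1 was lower of 10, beside 24.3%. Median-ratio rescaling, limma-voom, and the GC correction each called 4 of the 10 against WT, all higher. Of all genes, 8.90%, 6.35%, and 10.2% were then called higher, and 8.67%, 13.5%, and 5.04% lower. Against ∆*Firre*, limma-voom called 5 of the 10, 3 of them higher, beside 11.2% of all genes higher and 18.6% lower. Quantile normalization called 1 against ∆*Firre*, which was higher. Groups did not overlap for 5 of the 10 against ∆*Firre*, 3 higher and 2 lower, where 21.9% of all genes did not overlap (6.31% higher and 15.6% lower). They did not overlap for 3 of the 10 against WT, 2 higher and 1 lower, beside 18.0% of all genes (3.55% higher and 14.5% lower). The median log2 difference of the 10 was −0.06 against ∆*Firre* and −0.01 against WT, beside −0.16 and −0.21 over all genes tested. Rescaling the libraries by their median ratio moved the median of all genes to −0.05 and −0.03. Relative to the unscaled medians, *Rag1* stood 0.89 and 1.06 higher, *Rag2* 0.40 and 0.43, *Xrcc6* 0.37 and 0.42, *Dntt* 0.36 and 0.41, and *Nhej1* 0.18 and 0.53. *Lig4* stood at −0.53 and −0.21, *Xrcc4* at −0.45 and −0.53, *Xrcc5* at −0.31 and −0.29, *Dclre1c* at −0.16 and −0.15, and *Prkdc* at 0.03 and −0.02.

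The differences in all 3 comparisons also followed the GC content of exons. Across 13086 genes with a GC value, the log2 difference had a Spearman rho with GC content of 0.45 in *Firre* rescue against ∆*Firre*, 0.32 in *Firre* rescue against WT, and −0.36 in ∆*Firre* against WT. Genes are not independent replicates, and this is a description. By exon GC content *Rag2* was at the 7.46th percentile of genes tested, *Dclre1c* at the 7.51st, *Xrcc4* at the 9.64th, *Lig4* at the 16.5th, *Prkdc* at the 17.6th, *Rag1* at the 21.2nd, *Xrcc5* at the 28.7th, *Dntt* at the 45.6th, *Nhej1* at the 60.4th, and *Xrcc6* at the 64th. After each library was corrected for GC content, *Rag1* was called at 1.10 against ∆*Firre* and 1.20 against WT, and *Lig4* and *Xrcc5* were no longer called. *Rag2* (0.69 and 0.64) and *Dntt* (0.47 and 0.47, limma adjusted p = 0.0302 and 0.0375) were then called in both comparisons and *Xrcc6* against WT (0.40, adjusted p = 0.0918), and every called member was higher. Under the same correction 13.7% of 13086 genes were called higher and 5.80% lower against ∆*Firre*, and 10.2% and 5.04% against WT.

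**Figure D4:**
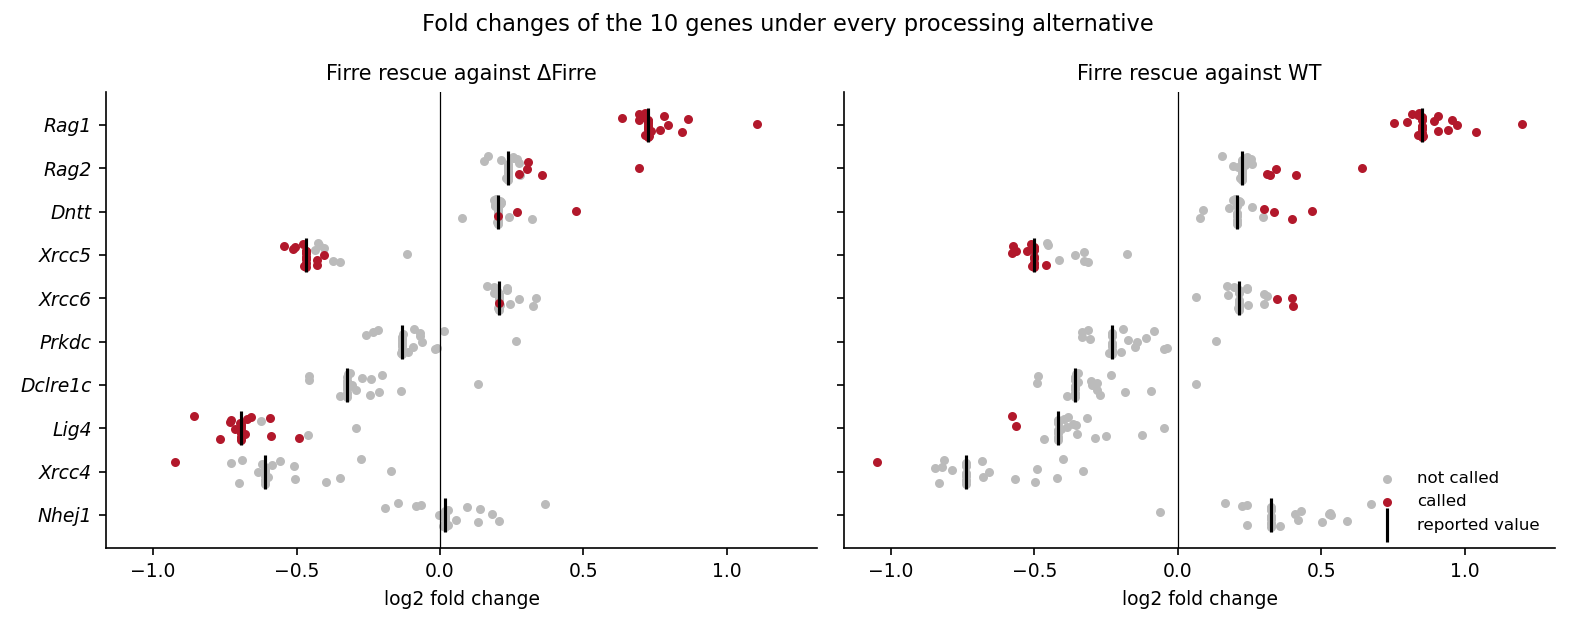
Log2 fold change (horizontal axis) of each gene in *Firre* rescue against ∆*Firre* and against WT under the reported settings (black line) and each alternative (points, red where called). *Rag1* is called under all 25 alternatives in both comparisons, between 0.63 and 1.20, whereas the points of *Rag2*, *Dntt*, *Xrcc6*, *Xrcc5*, *Xrcc4*, and *Lig4* are called under some only.

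By Pearson r of log2(TPM + 1) over the 12 libraries, the genes most like *Rag1* among all genes tested outside the 10 were *Vpreb3* (r = 0.96, and 0.87 after the group means were removed), *Tifa* (0.96 and 0.82), and *Cd79a* (0.95 and 0.74). *Vpreb3* is a pre-B cell receptor associated gene, *Tifa* a TRAF-interacting adaptor, and *Cd79a* a signaling chain of the B cell receptor. *Vpreb3* averaged 40.8 TPM in WT, 38.6 TPM in the ∆*Firre* libraries, and 202 TPM in those of *Firre* rescue. For *Rag2* the closest were *Romo1* (0.90), *Gtf2b* (0.89), and *Gm10073* (0.88), and for *Dntt* the ribosomal protein genes *Rpl3* (0.95) and *Rpl6* (0.89) and *Ppp3cc* (0.87). With the 10 members left out, these were 9 different genes. Among the members, *Xrcc6* was closer to *Dntt* (0.97) than any of them. *Rag1* and *Rag2* themselves had an r of 0.81 (0.69 after the group means were removed).

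Markers of B cell precursors moved with *Rag1*. Of the 8 genes *Cd79a*, *Cd79b*, *Vpreb1*, *Vpreb2*, *Vpreb3*, *Igll1*, *Blnk*, and *Cd24a*, 8 were called higher in *Firre* rescue against ∆*Firre* and 7 against WT, with medians of 1.45 and 1.44 on the log2 scale, beside 8.58% and 4.82% of all genes called higher. Their summed TPM was 786 to 1198 in WT, 997 to 1137 in ∆*Firre*, and 1825 to 2460 in *Firre* rescue, and none was at 0. *Vpreb1*, a surrogate light chain gene, averaged 35.5 TPM in ∆*Firre* CLPs and 207 TPM in *Firre* rescue CLPs. The CLP marker *Ly6d*, which marks the B-biased part of the CLP gate, averaged 485 TPM in ∆*Firre* CLPs and 1258 TPM in *Firre* rescue CLPs (log2 difference 1.36, limma adjusted p = 6e-05), while *Il7r* and *Flt3* were not called. Of the 8 CLP markers, *Kit* (−0.49 and −0.40, adjusted p = 0.0137 and 0.0373) and *Cd34* (−0.30 and −0.33, adjusted p = 0.0264 and 0.0208) were called lower against ∆*Firre* and WT. The lineage cocktail in the study's methods holds an antibody to B220, which B cell precursors carry. The purity of the sorted cells is not given in the sources used here. In bulk samples, a larger share of cells of one type and more RNA per cell cannot be told apart, and the part of these cells in the *Rag1* result was not tested.

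**Figure D5:**
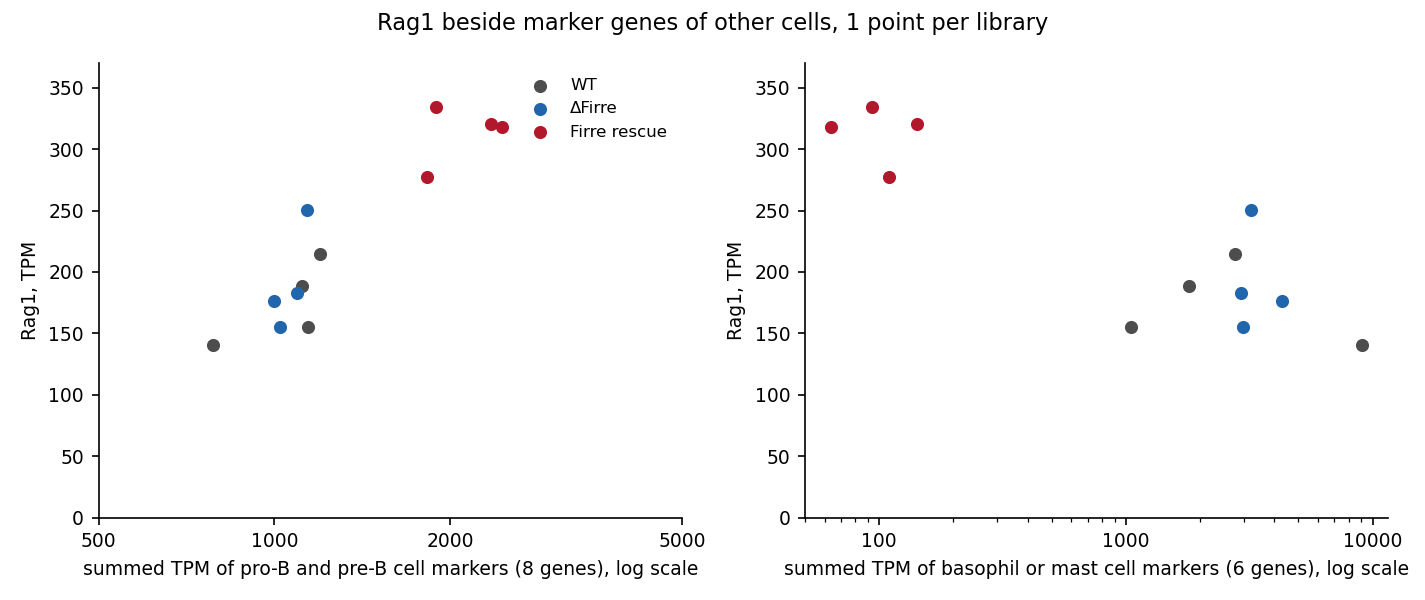
*Rag1* in TPM (vertical axis, from 0) against the summed TPM (horizontal axis, log scale) of 8 pro-B and pre-B cell markers and of 6 basophil or mast cell markers, with 1 point per library. The *Firre* rescue libraries hold the highest *Rag1* and B-precursor values and the lowest basophil values (64.0 to 142 TPM), and WT and ∆*Firre* libraries are mixed.

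Markers of some other cell types were lower in *Firre* rescue. The 6 basophil or mast cell markers summed to 1052 to 9045 TPM in WT, 2918 to 4291 TPM in the ∆*Firre* libraries, and 64.0 to 142 TPM in those of *Firre* rescue. All 6 were called lower against ∆*Firre* and against WT. The counts in this paragraph stand beside 8.58% of all genes higher and 19.3% lower against ∆*Firre*, and 4.82% and 19.4% against WT. The natural killer cell markers summed to 343 to 710 TPM in WT, 410 to 633 TPM in the ∆*Firre* libraries, and 241 to 295 TPM in those of *Firre* rescue. Of these 6 markers, 4 were called lower against ∆*Firre* and 3 against WT. *Nkg7* (−0.178 and −0.193) and *Eomes* (−0.472 and −0.515) were called in neither comparison. *Ncr1* fell most (−2.341 and −2.265). Without it the sums of *Firre* rescue overlapped those of WT and stayed below those of ∆*Firre*. The group 2 innate lymphoid cell markers summed to 75.4 to 114.5 TPM in WT, 90.04 to 115.5 TPM in ∆*Firre*, and 43.0 to 73.1 TPM in *Firre* rescue, and of the 5 tested 4 were lower against ∆*Firre* and 3 against WT. Of the 4 mature B cell markers tested, *Ms4a1* (−1.59 and −1.34) and *Cd74* (−0.62 and −0.71) were lower in both comparisons. The plasma cell markers summed to 875 to 1640 TPM in WT, 1620 to 3420 TPM in the ∆*Firre* libraries, and 306 to 530 TPM in those of *Firre* rescue, and of the 7, 2 were higher and 4 lower against ∆*Firre* (1 and 3 against WT). The largest of these changes against ∆*Firre* were those of *Jchain* (−6.23, from 2313 TPM to 70.4 TPM), *Tnfrsf17* (−2.91), *Prdm1* (−1.57), and *Mzb1* (1.34). *Jchain* decided the sum, which without it was 253.5 to 340.4 TPM in WT, 251.5 to 326 TPM in ∆*Firre*, and 278.5 to 442.6 TPM in *Firre* rescue. The plasmacytoid dendritic cell markers had sums of 666 to 847 TPM in WT, 628 to 727 TPM in ∆*Firre*, and 890 to 964 TPM in *Firre* rescue, and of the 5 tested 3 were called higher and 1 lower against ∆*Firre*, and 1 higher against WT. Without *Cox6a2* these sums overlapped, at 499 to 661, 457 to 548, and 484 to 655 TPM. The sums of the eosinophil, erythroid, neutrophil, and T cell markers overlapped between groups. Of the 5 T cell markers tested, 1 was called lower against ∆*Firre* and WT (*Bcl11b*, −1.035 and −1.317). In the other 3 lists, *Mpo* (−0.56 and −0.62), *Ctsg* (−1.55 and −1.40), and *Il5ra* (−0.92 and −1.13) were called lower in both comparisons. *Hba-a2* was called higher against WT (1.83). The part of these cells in the differences of the recombination genes was not tested. The proliferation markers *Mki67*, *Top2a*, *Ccnb1*, *Cdk1*, *Pcna*, and *Mcm2* summed to 1153 to 1262 TPM in WT, 987 to 1327 TPM in the ∆*Firre* libraries, and 1232 to 1562 TPM in those of *Firre* rescue. Of these 6, 3 were called higher against ∆*Firre* (*Ccnb1*, *Pcna*, and *Mcm2*) and 2 against WT (*Ccnb1* and *Pcna*), and none was called lower. Their part in the differences of the recombination genes was not tested either.

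Genes around the 10 in the same pathway changed in both directions in *Firre* rescue and were not called in ∆*Firre* against WT, where 0 of 46 were called with limma, 3 had an unadjusted p under 0.05, and limma-voom called 0. Over all genes the corresponding limma shares were 0.0207% and 5.30%. Among other end-joining factors, 1 of 6 was higher and 1 lower against ∆*Firre*, where 8.58% of all genes were higher and 19.3% lower. *Poll*, a gap-filling polymerase of end joining, averaged 34.6 TPM in *Firre* rescue and 18.9 TPM in ∆*Firre* (0.78, SE 0.28, limma adjusted p = 0.0673). *Polm*, the relative of *Dntt* that acts at light-chain joints, averaged 1.102 and 3.26 TPM (−1.11, SE 0.42, adjusted p = 0.0799). Against WT, 0 of the 6 were called with limma, 0 had an unadjusted p under 0.05, and limma-voom called 0, where limma called 24.3% of all genes.

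Of the 10 break response factors, 1 was higher and 2 were lower against ∆*Firre*, and 1 was higher and 3 were lower against WT. *H2afx*, the histone variant phosphorylated around breaks, averaged 274 TPM in *Firre* rescue, 154 TPM in ∆*Firre*, and 197 TPM in WT, and rose in both comparisons (0.82 and 0.47, limma adjusted p = 0.000764 and 0.0163). *Rnf168*, a ubiquitin ligase that acts on chromatin at breaks, averaged 62.1, 85.6, and 95.6 TPM in the same order and fell by 0.47 and 0.62. *Nbn* of the MRN end-sensing complex fell by 0.35 and 0.50, and *Rad50* of the same complex fell by 0.47 against WT. These counts stand beside 27.9% and 24.3% of all genes called.

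The cofactors of RAG moved upward where they were called. *Hmgb1* and *Hmgb2*, which bend DNA in the RAG complex, were 2 of the 4 genes of this list and rose by 0.19 and 0.38 against ∆*Firre* (limma, adjusted p = 0.0998 and 0.0246), and *Hmgb2* rose by 0.32 against WT. *Hmgb2* averaged 873 TPM in WT, 833 TPM in the ∆*Firre* libraries, and 1082 TPM in those of *Firre* rescue. In alternative end joining, 2 of 5 genes rose against ∆*Firre*: *Parp1* by 0.47, from 311 to 436 TPM, and *Xrcc1* by 0.44, from 15.6 to 21.5 TPM. *Xrcc1* averaged 21.4 TPM in WT, and its difference of −0.425 in ∆*Firre* against WT was not called (limma, adjusted p = 0.889). *Parp1* also rose by 0.39 against WT. Higher calls made up 8.58% of all genes against ∆*Firre* and 4.82% against WT.

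Among 21 known regulators of *Rag* and *Dntt* transcription, 6 were higher and 3 lower against ∆*Firre*, and 5 were higher and 4 lower against WT. Of all genes, 8.58% were higher and 19.3% lower against ∆*Firre*, and 4.82% and 19.4% against WT. *Pax5*, the B-lineage commitment factor, averaged 21.6 TPM in WT, 18.4 TPM in the ∆*Firre* libraries, and 53.0 TPM in those of *Firre* rescue (1.47 and 1.28, limma adjusted p = 0.00119 and 0.00316). *Tcf3*, which encodes the E proteins E12 and E47, averaged 84.9, 56.7, and 141 TPM and rose by 1.30 and 0.71. *Ebf1*, which specifies B cells, averaged 29.2, 28.03, and 57.9 TPM and rose by 1.03 and 0.99. *Lef1*, active in pro-B cells, averaged 3.96, 2.85, and 7.66 TPM and rose by 1.19 and 0.80. *Ikzf3*, which encodes Aiolos and acts later in B cells, fell by 1.75 and 1.72, from 16.9 and 16.8 TPM to 4.17 TPM. The median of the list was 0.08 against ∆*Firre* and −0.11 against WT, beside −0.16 and −0.21 over all genes tested.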

How the data were processed

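Each of 12 CLP libraries came from 1 male mouse. The paired-end reads were adapter-trimmed, mapped to mm10 with TopHat2 2.1.1, and assigned to Gencode genes with featureCounts, and the authors tested genes with DESeq2 and fdrtools and deposited TPM. The strand setting, the treatment of multi-mapping reads, and the gene lengths used for TPM are not given in the sources used here. Groups came from the sample labels. Symbols came from a table of gene names that matched 32799 of 47643 identifiers. Some older symbols were matched through RefSeq synonyms, and *Paxx*, *Hbb-bs*, and *Hbb-bt* found no match. Some genes of the other lists are not reported here.

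All 3 groups entered one limma fit (version 3.58.1, R 4.3.3) of log2(TPM + 1) with a mean-variance trend, over genes averaging 1 TPM or more. P-values were two-sided, Benjamini-Hochberg adjusted over 14479 genes, and called at 0.1 or less. Fold changes on this scale understate the change of low genes. The steps between low TPM values gave back whole reads. Of the values above 0, 99.9% came within 0.02 reads of a whole number, plus 4e-07 per read. In the smallest library 1 read on 1 kb is worth 0.284 TPM. Python 3.11.15 with numpy 2.4.6 and pandas 2.3.3 was used for ratios, ranks, and motif counts.

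The members and lists were chosen with earlier results of these data known. The 10 members are named throughout, and from each other list at most the 4 called genes with the largest change per comparison. For *Rag1*, *Rag2*, and *Dntt*, the 3 genes with the highest Pearson r, other members left out, are also named. Alternatives were other pseudocounts (0.1 and 5), filters, scalings, variance trends, fits, a threshold of 0.05, blocks, limma-voom, and each library left out. Chosen after seeing the data were spline corrections (4 degrees of freedom) for the GC content of exons, taken from an older annotation joined by identifier. On simulated data for ∆*Firre* against WT with 14471 genes tested, 142 of 200 genes changed 2-fold were recovered. Of the unchanged genes, 21 were called.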

Additional observations from a re-analysis of the deposited data

Results flagged for a closer look

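Of the 30 sets of 4 values, 1 per gene and group, 4 held a library that stood apart from the other 3 by Dixon's test, where chance gives 1.5. *Rag2* in *Firre* rescue mouse 4 was at 7.32 on the log2(TPM + 1) scale, beside 7.02 to 7.07 in the other *Firre* rescue libraries. *Nhej1* in *Firre* rescue mouse 3 was at 2.84, beside 4.14 to 4.37. *Lig4* in WT mouse 8 was at 2.96, beside 3.50 to 3.59, and *Xrcc4* in the same library was at 4.44, beside 3.37 to 3.55.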

How the results depend on the processing

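Of 780 member results under alternatives, 686 kept their direction and their side of the threshold, 25 newly passed it, 22 lost it, and 47 changed sign, none of which was called under the reported settings. The number of members called in *Firre* rescue against ∆*Firre* was 3, and became 1 under quantile normalization and 5 with only the compared groups in the fit or with limma-voom on recovered reads. Leaving out 1 library gave 1 (∆*Firre* mouse 11) to 4. Against WT it was 2, and became 4 after rescaling by the median ratio, with limma-voom, or after the GC correction, and 1 with only the compared groups or at an adjusted p of 0.05. Leaving out 1 library gave 1 (*Firre* rescue mouse 2) to 3. Of the 46 other genes of the pathway, 18 were called against ∆*Firre* as reported and 13 to 21 under alternatives. Against WT, 15 of these 46 were called as reported and 9 to 21 under alternatives. The cause was not tested. Over all genes, calls against ∆*Firre* went from 4043 to 2682 at an adjusted p of 0.05 and 2554 after the GC correction, with 1242 higher as reported and 1795 higher after that correction. Calls against WT went from 3512 to 2263 with only the compared groups and 1996 after the GC correction, with 698 and 1336 higher. In ∆*Firre* against WT, 3 genes were called, 6 with no filter, 1 with only the compared groups, 0 with limma-voom, 1 with GC correction and replicate block together, and 1 to 5 with 1 library left out (1 without ∆*Firre* mouse 9 or 11, 5 without ∆*Firre* mouse 12).

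Signs changed in ∆*Firre* against WT after rescaling by the median ratio, quantile normalization, TPM without abundant gene classes, and limma-voom. In that order the values were 0.057, 0.043, 0.035, and 0.038 for *Rag2*, 0.031, 0.041, 0.011, and 0.005 for *Dclre1c*, and 0.035, 0.047, 0.014, and 0.047 for *Xrcc5*. *Dntt* was at 0.000 under quantile normalization and −0.005 after the GC correction, with or without the block. In *Firre* rescue, the GC correction turned *Dclre1c* to 0.134 and *Prkdc* to 0.264 against ∆*Firre*, and to 0.062 and 0.134 against WT, and limma-voom turned *Nhej1* to −0.004 against ∆*Firre*. With 1 library left out, ∆*Firre* against WT ranged from −0.012 to 0.231 for *Rag1*, −0.084 to 0.070 for *Rag2*, −0.114 to 0.1 for *Dntt*, −0.169 to 0.1 for *Dclre1c*, −0.236 to 0.120 for *Xrcc4*, −0.112 to 0.137 for *Xrcc5*, −0.142 to 0.104 for *Xrcc6*, −0.202 to 0.026 for *Prkdc*, and −0.079 to 0.518 for *Nhej1*. In *Firre* rescue against ∆*Firre* it ranged from −0.257 to 0.015 for *Prkdc* and −0.192 to 0.366 for *Nhej1*, and against WT from −0.061 to 0.674 for *Nhej1*.

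WT and ∆*Firre* share the mouse numbers 8 and 11, and the labels do not say whether these numbers pair the mice. Over genes, same-numbered libraries did not deviate together from their group means (r = −0.03 and −0.04). That does not decide it, because paired mice need not deviate together over all genes. With the replicate block, 3 genes and 0 members were called in ∆*Firre* against WT, and *Rag1* was at 0.13.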
